A study of Homo sapiens with 12 samples.

Results

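Replication-dependent histone genes encode the core histones H2A, H2B, H3 and H4, around which DNA is wound in nucleosomes, and the linker histone H1, which sits on the DNA between them. Many near-identical copies lie in clusters, and most copies are transcribed when DNA is replicated. Their mRNAs are usually short, lack introns and end, without a poly(A) tail, just after a stem-loop that binds the protein SLBP. Some copies are also known to yield longer polyadenylated transcripts, mainly in cells that are not dividing. The members were chosen by name: gene symbols of the form HIST1H to HIST4H or their newer equivalents, without pseudogene symbols and without genes under 10 counts in every library. Of 93 rows with such names, 15 carried pseudogene symbols and 35 were under the minimum, 9 of them at 0 in all 12 libraries. This left 43 of 40295 rows, or 41 distinct symbols: 3 H1, 9 H2A, 15 H2B, 7 H3 and 7 H4 genes.

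The study tested small molecules for their ability to restore function to mutant p53. TOV-112D, an ovarian carcinoma line that carries p53 R175H, was treated for 3 h with the solvent DMSO, the compound UCI-1001 or its analog UCI-1014, with 2 libraries each. Saos-2, an osteosarcoma line, was used as the parental p53-null line and as an engineered line expressing p53-WT from a doxycycline-inducible construct, both labelled with 16 h of induction, with 3 libraries each. No dose of UCI-1014 is given in the sources used here, so the compounds were compared without knowing that their doses matched, and whether the p53-WT line was 1 clone, and whether poly(A) RNA was selected for the libraries, was likewise not given.

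The libraries held 17762027 to 24629558 counts, of which the histone genes made up 2083 to 12760. Values below are CPM, counts scaled by the TMM-adjusted library size, unless TPM, which also corrects for transcript length, is named. CDKN1A, a p53 target that halts the cell cycle, averaged 8.49 ± 1.01 CPM (SD, n = 2) in DMSO libraries, 26.5 ± 1.84 CPM in UCI-1001 libraries and 98.9 ± 1.28 CPM in UCI-1014 libraries. HSPA1A, a heat shock gene summed over its 5 identifiers, averaged 217 ± 13.6, 6779 ± 503 and 24482 ± 1003 CPM in the same groups. Of 8 ovarian epithelial markers 3 were expressed highly enough to be tested in TOV-112D cells, with PAX8 and KRT18 at or near 0 in each TOV-112D library, and of 8 osteoblast markers 4 were tested in Saos-2 cells, with SP7 at 0 in each Saos-2 library. Some markers ran against the labelled origin: KRT18 stood at 402 to 558 CPM and PAX8 at 3.27 to 7.55 CPM in Saos-2 libraries, and COL1A1 at 47.6 to 53.2 CPM in TOV-112D and 0.397 to 1.84 CPM in Saos-2 libraries. No label says whether same-group libraries came from separate cultures, so p-values measure the spread between these libraries, which may be technical.

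The name-based choice was checked against the 3′ stem-loop that defines the family. The pattern searched was GG, 3 pyrimidines, T, any 4 loop bases, A, 3 purines and CC, on the gene's strand and within 150 bases after the stop codon in GENCODE release 44 on GRCh38. It was present in 38 of the 38 members with an annotated stop codon, 22 to 56 bases after it (median 35). It was in 0 of 4048 protein-coding genes without a histone name on chromosomes 1, 6 and 12. Other histone genes, including those under the count minimum, were left out of these 4048. There were 7 distinct sequences, and the most common one stood in 22 genes of the H1, H2A, H2B and H3 classes, while the 7 H4 genes carried 2 sequences found in no other class. The examples below are shown because they carry the results that follow; capitals mark the stem arms, and 5 bases flank each side.
HIST1H1C, chr6:26055744-26055759, minus strand: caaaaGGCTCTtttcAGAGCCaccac
HIST1H2BG, chr6:26216218-26216233, minus strand: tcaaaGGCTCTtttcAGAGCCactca
HIST1H2BH, chr6:26252055-26252070, plus strand: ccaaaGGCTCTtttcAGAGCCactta
HIST1H2BJ, chr6:27132321-27132336, minus strand: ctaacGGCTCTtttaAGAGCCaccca
HIST1H4H, chr6:26285131-26285146, minus strand: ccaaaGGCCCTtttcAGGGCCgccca
HIST2H4B, chr1:149860769-149860784, minus strand: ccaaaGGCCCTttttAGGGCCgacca

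HIST1H1C, HIST1H2BG and HIST1H2BH shared the same stem-loop and responded in different ways, as described below. Among the members found in GENCODE release 44, 28 lay on chromosome 6, 10 on chromosome 1 and 1, HIST4H4, on chromosome 12. The identifiers of HIST2H2AA4 and HIST1H3B were not matched to this annotation. HIST2H2BD, which passed the name rule, is annotated there as the transcribed pseudogene H2BC19P. Copies so alike limit the counts: HIST3H2A and HIST3H2BB each stood under 2 identifiers with the same counts, HIST2H3A and HIST2H3C held the same counts in each library and are 1 measurement, and reads shared by HIST2H4A and HIST2H4B can be split between them. In all numbers of genes tested and called below, HIST2H3A and HIST2H3C are still counted as separate genes.

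The members were low and uneven in level. Per length, HIST1H2BK was highest, at 161 ± 1.94 TPM with DMSO and 435 ± 20.9 TPM in p53-null cells (SD, n = 2 and 3). The linker histone gene HIST1H1C followed with 61.4 ± 2.94 and 128 ± 10.02 TPM. Averaged over the 12 libraries, the other members with TPM values lay between 0.279 TPM and the 52.3 TPM of HIST1H2BJ. HIST1H3E showed a mean of 0.597 TPM with DMSO, but its counts were 0 in each of the 3 p53-WT libraries and 1, 2 and 2 in the p53-null ones, and it was not tested in Saos-2 cells.

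In TOV-112D cells the summed histone signal was higher with either compound and stood highest with UCI-1014. The sum over all members was 107 and 114 CPM in the DMSO libraries, 156 and 156 CPM with UCI-1001 and 249 and 237 CPM with UCI-1014, so that the groups did not overlap and the means stood at 1.41 and 2.19 times that of DMSO. H3 genes together averaged 5.90 ± 0.622 CPM (SD, n = 2) in DMSO libraries, 12.9 ± 0.391 CPM in UCI-1001 libraries and 21.1 ± 1.80 CPM in UCI-1014 libraries, and H4 genes 14.0 ± 2.07, 23.8 ± 0.0545 and 46.5 ± 1.73 CPM. H2A genes stood at 1.36 and 2.00 times the DMSO mean and H2B genes at 1.43 and 2.35 times. The H1 sum, nearly all of it HIST1H1C, went the other way, with 16.8 ± 0.483, 15.1 ± 0.662 and 12.2 ± 0.105 CPM. These sums carry no test, since a two-sided exact permutation test of 2 against 2 libraries cannot go below p = 0.333. In RNA from whole cultures, a change in the share of cells in S phase and a change in histone mRNA per cell cannot be told apart.

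**Figure D1:**
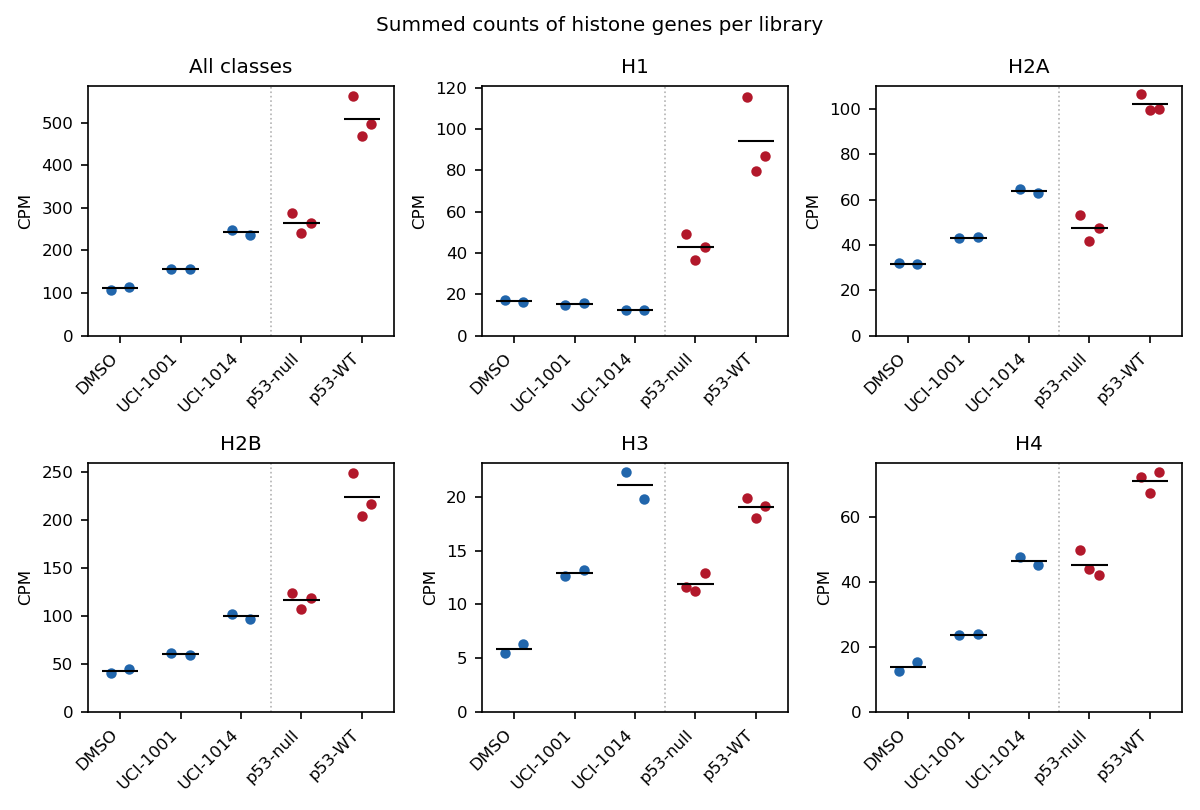
Summed CPM of histone genes (vertical axes from 0, scaled separately in each panel) for all members and for each class, in 5 groups of libraries. Points are libraries, bars are group means and the dotted line separates TOV-112D (blue) from Saos-2 (red) cells. The H1 panel goes from 16.8 to 12.2 CPM between DMSO and UCI-1014 while the H3 panel goes from 5.90 to 21.1 CPM.

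Of the 15 histone genes that rose with UCI-1001, 11 were H2B or H3 genes. In edgeR's quasi-likelihood fit, with p-values adjusted by Benjamini and Hochberg's method over all 14989 genes tested in TOV-112D cells, 36 members were tested, 15 were higher than with DMSO at an adjusted p under 0.05 and none was lower. Across all genes tested, 7.75% were called higher and 5.22% lower. The 15 comprised 7 of 13 H2B genes, 4 of 5 H3 genes, 2 of 8 H2A genes, 2 of 7 H4 genes and 0 of 3 H1 genes. The H3 genes called include both HIST2H3A and HIST2H3C, which are 1 measurement. The members' median log2 fold change was 0.71, against -0.0025 over all genes tested. At an unadjusted p under 0.05, 22 members were higher and 0 lower, and DESeq2 called 14 higher and 0 lower. The count moved with single libraries: 6 genes were called higher without DMSO replicate 1 and 9 without DMSO replicate 2, 11 and 10 without UCI-1001 replicate 1 and 2.

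The response to UCI-1014 reached most of the core histone genes. Of the 36 members tested, 27 were higher, beside 22.7% of all genes tested, and 1 was lower, beside 21.5%. The 27 comprised 11 of 13 H2B genes, 6 of 8 H2A genes, 5 of 5 H3 genes and 5 of 7 H4 genes, and 20 of them exceeded a log2 fold change of 1. The H3 genes include both HIST2H3A and HIST2H3C, which are 1 measurement, and the 11 H2B genes include HIST2H2BD, the annotated pseudogene. The median log2 fold change was 1.54, against -0.0131 over all genes. The gene that fell was HIST1H1C. Between the compounds, 20 members were higher with UCI-1014 than with UCI-1001, beside 16.2% of all genes, and 1 was lower, beside 11.5%, with a median of 0.67 against -0.0041. This count was 12 without UCI-1001 replicate 1, UCI-1014 replicate 1 or UCI-1014 replicate 2. For UCI-1014 against DMSO, 24 to 28 members were higher when any single library was left out. The 3 comparisons share libraries, so their values are given side by side and not as independent evidence.

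Of the members tested in TOV-112D cells, 8 (HIST1H1B, HIST1H1E, HIST1H2BE, HIST1H2BF, HIST1H4E, HIST2H3A, HIST2H3C and HIST3H2BB) had a DMSO library under the filter's level of 0.524 CPM, and a gene of this kind can pass the filter through its treated libraries. Among them, HIST1H2BE, HIST2H3A and HIST2H3C are counted as higher in each TOV-112D comparison, and HIST1H2BF with UCI-1014 against DMSO. For these genes a call of higher is favoured by the filter, so the counts of calls above are to be read with them in mind. Not tested there were HIST1H2AL, HIST1H2BL, HIST1H2BO, HIST1H3B and HIST1H3D.

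**Figure D2:**
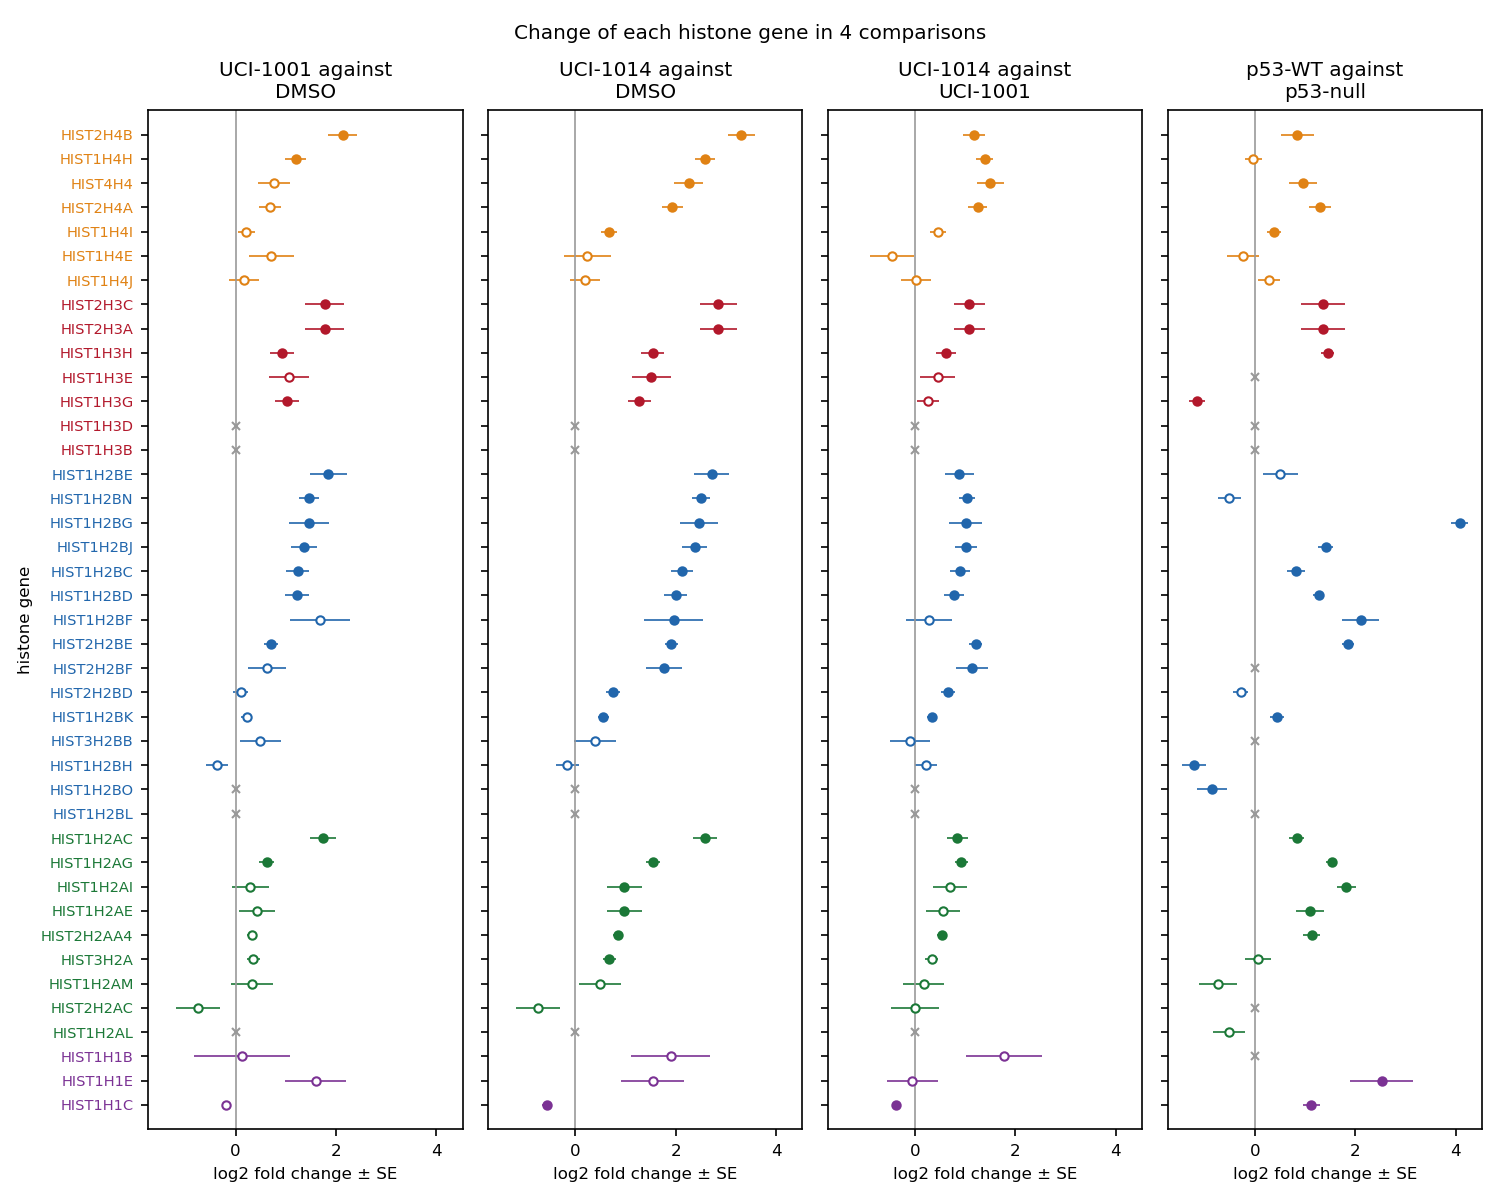
Log2 fold change with its SE (horizontal axis, shared by the panels) for each of 41 histone genes (rows, coloured by class and ordered by class and by the change with UCI-1014) in 4 comparisons. Filled points passed an edgeR adjusted p of 0.05, open points did not, and grey crosses mark genes not tested. The H3 and most H2B and H4 genes stand to the right of 0 with UCI-1014, and HIST1H1C stands to the left at -0.57.

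Among H4 genes the fold changes against DMSO were highest for HIST2H4B. It measured 0.721 and 1.73 CPM with DMSO, 5.88 and 4.87 CPM with UCI-1001 and 11.9 and 12.4 CPM with UCI-1014. The 3 groups did not overlap, and the differences from DMSO were 2.14 ± 0.29 (log2, SE; edgeR adjusted p = 0.00104) and 3.31 ± 0.27 (edgeR adjusted p = 4.93e-06). Its near-copy HIST2H4A encodes the same protein, and for it the difference with UCI-1014 was 1.93 ± 0.21 (edgeR adjusted p = 3.91e-05). Because reads can be split between these copies, their sum is the safer measure: it was 2.99 and 3.36 CPM with DMSO, 8.74 and 8.28 CPM with UCI-1001, and 19.6 and 19.5 CPM with UCI-1014, or 2.68 and 6.17 times the DMSO mean. These ratios of the sum were below the 4.40-fold and 9.91-fold of HIST2H4B alone.

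HIST1H4H and HIST4H4, the H4 gene outside the large clusters, showed the widest gaps between the compounds among H4 genes. HIST1H4H stood at 1.65 and 2.00 CPM with DMSO, 3.70 and 4.67 CPM with UCI-1001 and 12.04 and 9.90 CPM with UCI-1014, a difference between the compounds of 1.39 ± 0.17 (edgeR adjusted p = 0.000283). HIST4H4 measured 0.773 and 0.921, 1.73 and 1.15, and 4.25 and 3.90 CPM in the same order, and the compounds differed by 1.49 ± 0.27 (edgeR adjusted p = 0.00254). For both genes the UCI-1014 libraries lay above all others. HIST1H4I, the H4 gene with the highest CPM over the 12 libraries, differed less, with 4.79 and 6.50 CPM with DMSO and 9.34 and 8.67 CPM with UCI-1014 (0.67 ± 0.16, edgeR adjusted p = 0.00601), and HIST1H4J and HIST1H4E passed in no TOV-112D comparison.

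The tested H3 genes were higher with UCI-1014, but HIST2H3A and HIST2H3C, a single measurement, passed the filter through the treated libraries and HIST1H3B and HIST1H3D were not tested. HIST2H3A and HIST2H3C, 1 measurement, held 0.309 and 0.813 CPM with DMSO, 2.07 and 1.76 CPM with UCI-1001 and 4.43 and 3.69 CPM with UCI-1014. The differences from DMSO were 1.77 ± 0.39 (edgeR adjusted p = 0.0154) and 2.85 ± 0.37 (edgeR adjusted p = 0.000142), from 6 and 15 counts per gene in the DMSO libraries. These values are for each gene alone, and reads can be split between the copies. Their sum was 0.618 and 1.63 CPM with DMSO, 4.15 and 3.51 CPM with UCI-1001, and 8.87 and 7.39 CPM with UCI-1014. The means of this sum were 3.42 and 7.24 times that of DMSO. HIST1H3G stood at 1.34 and 1.41, 2.86 and 2.71, and 3.17 and 3.49 CPM, and for it the compounds did not overlap but their difference did not pass the test, at 0.26 and a 95% interval of -0.16 to 0.68 on the log2 scale. HIST1H3H measured 2.32 and 1.63, 3.31 and 4.22, and 5.63 and 5.90 CPM, with the groups in order and without overlap.

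H2B genes made up the longest list of calls. HIST1H2BE stood at 1.13 and 0.379 CPM with DMSO, 2.77 and 2.76 CPM with UCI-1001 and 5.39 and 4.77 CPM with UCI-1014, and was 2.72 ± 0.35 higher with UCI-1014 (edgeR adjusted p = 0.000134). DMSO replicate 2, with 7 counts, lay under the filter's level, so this gene passed the filter through the treated libraries. HIST2H2BE, with more counts, gave a smaller but tighter difference: 3.76 and 3.68, 6.03 and 6.17, and 14.9 and 13.2 CPM, or 0.71 ± 0.14 for UCI-1001 (edgeR adjusted p = 0.00904) and 1.91 ± 0.13 for UCI-1014 (edgeR adjusted p = 1.69e-06). HIST1H2BJ went from 0.773 and 1.03 CPM to 2.27 and 2.36 and to 4.67 and 4.72 CPM. HIST1H2BK, which took more reads than any other H2B gene, measured 16.0 and 15.6, 20.3 and 16.5, and 21.4 and 24.8 CPM, a difference of 0.55 ± 0.11 with UCI-1014 (edgeR adjusted p = 0.00229) and none that passed with UCI-1001 (0.22 ± 0.11, edgeR adjusted p = 0.243). HIST1H2BH was the 1 tested H2B gene with a negative difference with either compound, at 3.14 and 3.63, 2.82 and 2.41, and 3.41 and 2.67 CPM, and it did not pass in any TOV-112D comparison. The 95% interval of its difference with UCI-1014 ran from -0.59 to 0.27.

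H2A genes spanned a wide range. HIST1H2AC held 1.03 and 1.73 CPM with DMSO, 3.95 and 5.32 CPM with UCI-1001 and 8.09 and 8.46 CPM with UCI-1014, a difference of 2.58 ± 0.25 with UCI-1014 (edgeR adjusted p = 1.73e-05). HIST1H2AG measured 4.53 and 4.23, 7.26 and 6.22, and 13.5 and 12.1 CPM, which amounts to 1.54 ± 0.14 with UCI-1014 (edgeR adjusted p = 1.16e-05). HIST2H2AC had lower mean values with the compounds, at 2.16 and 1.79, 0.889 and 1.46, and 0.599 and 1.69 CPM, and with UCI-1014 it was at -0.76 ± 0.44 (edgeR adjusted p = 0.193), so its direction is not known at this depth.

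Among the H1 genes, HIST1H1C was the 1 member called lower. HIST1H1C, the highest in CPM of the H1 genes among the members, measured 16.9 and 15.9 CPM with DMSO, 14.2 and 14.6 CPM with UCI-1001 and 11.0 and 11.1 CPM with UCI-1014. The groups were ordered without overlap. With UCI-1014 it fell by 0.57 on the log2 scale (SE 0.09, edgeR adjusted p = 0.000601), and against UCI-1001 the difference was -0.38 ± 0.09 (edgeR adjusted p = 0.0126; DESeq2 adjusted p = 0.0516). Against DMSO, UCI-1001 gave -0.19 ± 0.09 (edgeR adjusted p = 0.195). HIST1H1E and HIST1H1B had under 1 CPM in each TOV-112D library and passed in no comparison there, with UCI-1014 against DMSO at 1.54 ± 0.62 and 1.90 ± 0.78.

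**Figure D3:**
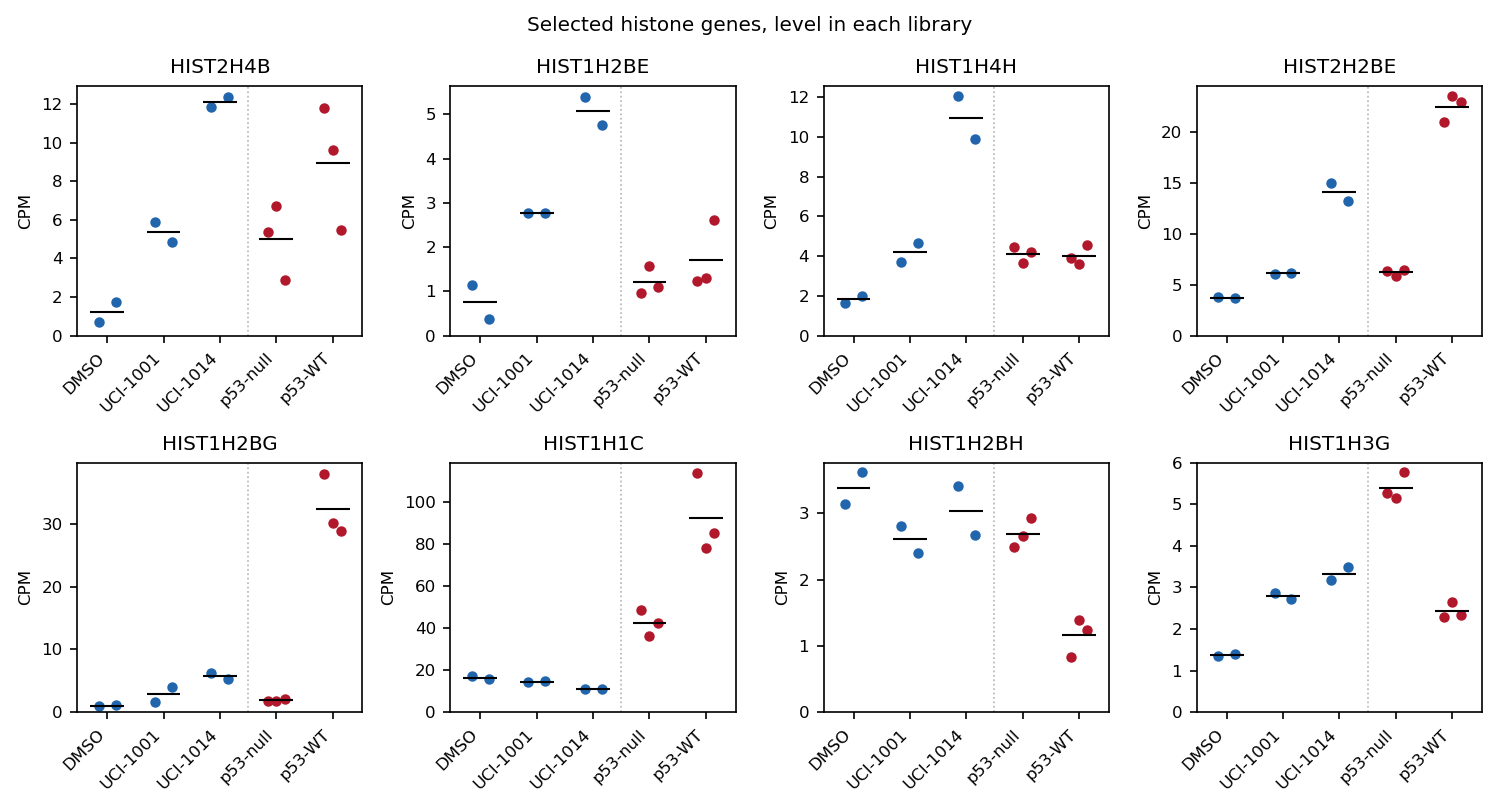
CPM of 8 histone genes (vertical axes from 0, scaled separately) in each library, with bars for group means, TOV-112D in blue and Saos-2 in red. HIST2H4B, HIST1H2BE, HIST1H4H and HIST2H2BE are highest in the UCI-1014 libraries among TOV-112D cells, HIST1H2BG is at 28.9 to 37.9 CPM with p53-WT against 1.80 to 2.10 CPM in p53-null cells, and HIST1H1C is lower with UCI-1014 and higher with p53-WT.

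In Saos-2 cells the comparison asks which histone genes differ when p53-WT is expressed. The sum over all members was 288, 241 and 264 CPM in p53-null and 563, 468 and 496 CPM in p53-WT libraries, a ratio of means of 1.93 with no overlap. Here the H1 sum was 2.18 times as high, H2A 2.15, H2B 1.91, H3 1.60 and H4 1.57 times. An exact permutation test of 3 against 3 libraries cannot go below p = 0.1, so the sums again carry no test. With edgeR, 33 members were tested among 15081 genes, 21 were higher, beside 32.9% of all genes, and 3 were lower, beside 32.1%. The median log2 fold change was 0.85, against -0.0136 over all genes. Higher were 2 of 2 H1 genes, 5 of 8 H2A genes, 7 of 12 H2B genes, 3 of 4 H3 genes and 4 of 7 H4 genes. HIST2H3A and HIST2H3C, 1 measurement, were each counted. Of the 33, 4 (HIST1H1E, HIST1H2BF, HIST2H3A and HIST2H3C) had a p53-null library under the filter's 0.468 CPM. All of these are among the 21 called higher, a call that the filter favours for such genes. The 8 not tested were HIST1H1B, HIST1H2BL, HIST1H3B, HIST1H3D, HIST1H3E, HIST2H2AC, HIST2H2BF and HIST3H2BB.

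The H2B gene HIST1H2BG differed most. It measured 1.80, 1.80 and 2.10 CPM in p53-null and 37.9, 30.1 and 28.9 CPM in p53-WT libraries, from 38 to 48 and from 603 to 859 counts. All p53-WT libraries lay far above all p53-null ones, at 16.9-fold or 4.08 ± 0.16 on the log2 scale (edgeR adjusted p = 2.91e-08). The same gene stood at 0.927 and 1.14 CPM with DMSO, 1.68 and 4.01 CPM with UCI-1001 and 6.17 and 5.28 CPM with UCI-1014. The UCI-1001 libraries differed from each other by more than the DMSO ones, and UCI-1014 against DMSO was at 2.46 ± 0.38 (edgeR adjusted p = 0.000423).

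Other rises in p53-WT cells were smaller. HIST2H2BE held 6.32, 5.83 and 6.44 CPM in p53-null and 20.9, 23.5 and 23.0 CPM in p53-WT libraries (1.86 ± 0.12, edgeR adjusted p = 5.33e-07). HIST1H2BF held 0.277, 0.568 and 0.394 CPM and 1.28, 1.65 and 2.47 CPM (2.11 ± 0.37, edgeR adjusted p = 0.000627). It passed the filter through the p53-WT libraries, since p53-null replicates 1 and 3 lay under the filter's 0.468 CPM. HIST1H2AG stood at 15.9, 13.6 and 13.4 CPM and at 39.9, 41.2 and 42.9 CPM (1.53 ± 0.11, edgeR adjusted p = 1.25e-06). In each of these genes the lines did not overlap. HIST1H2BJ went from 14.0, 9.95 and 12.4 CPM to 37.3, 29.4 and 30.2 CPM, and HIST1H3H from 5.77, 4.88 and 5.61 CPM to 15.4, 14.1 and 14.96 CPM. HIST1H2AC measured 21.6, 14.6 and 17.4 CPM and 31.6, 33.1 and 30.6 CPM (0.83 ± 0.14, edgeR adjusted p = 0.000549), a smaller difference than that of HIST1H2AG.

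Of the linker histone genes, HIST1H1C and HIST1H1E rose and HIST1H1B was not tested. HIST1H1C measured 48.6, 36.1 and 42.2 CPM in p53-null and 114, 78.2 and 85.1 CPM in p53-WT libraries (1.13 ± 0.16, edgeR adjusted p = 0.000181). HIST1H1E held 0.185, 0 and 0.482 CPM against 1.72, 0.848 and 1.41 CPM (2.52 ± 0.63, edgeR adjusted p = 0.00555). Its p53-null libraries held 4, 0 and 11 counts, with replicates 1 and 2 below the filter level. It passed the filter through the p53-WT libraries, and the size of its difference rests on these few counts. Differences were smaller in 2 other genes with high CPM: HIST1H2BK at 70.1, 59.3 and 67.4 CPM against 108, 75.4 and 83.5 CPM gave 0.44 ± 0.14 (edgeR adjusted p = 0.0212), and HIST1H4I at 26.5, 23.6 and 21.0 CPM against 25.8, 34.2 and 33.0 CPM gave 0.39 ± 0.14 with overlapping lines (edgeR adjusted p = 0.0326). For HIST2H4A and HIST2H4B together the values were 15.5, 13.7 and 13.8 CPM and 38.0, 25.7 and 31.9 CPM, or 2.22 times as high. HIST2H4B alone overlapped between the lines, with 5.35, 6.72 and 2.89 CPM and 11.8, 9.62 and 5.47 CPM.

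The 3 genes that fell in p53-WT cells were the H2B genes HIST1H2BH and HIST1H2BO and the H3 gene HIST1H3G. HIST1H2BH measured 2.49, 2.65 and 2.94 CPM in p53-null and 0.839, 1.40 and 1.24 CPM in p53-WT libraries (-1.22 ± 0.24, edgeR adjusted p = 0.00129). HIST1H3G measured 5.26, 5.16 and 5.78 CPM and 2.29, 2.64 and 2.34 CPM (-1.16 ± 0.16, edgeR adjusted p = 0.000142). In neither gene did the lines overlap. HIST1H2BO stood at 0.831, 0.852 and 1.14 CPM and at 0.574, 0.549 and 0.441 CPM (-0.85 ± 0.30, edgeR adjusted p = 0.0300), and with a mean under 1 CPM it lies outside the naming rule and was named after its values were seen; it was not called by DESeq2. HIST1H4H, among the largest rises with UCI-1014, was at 4.48, 3.65 and 4.21 CPM and at 3.93, 3.59 and 4.55 CPM, a difference of -0.03 with a 95% interval of -0.36 to 0.30 and a sign that turned with single libraries left out.

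Side by side, 31 members were tested in both cell lines, which share no library. Of these, 19 were higher both with UCI-1014 and with p53-WT, 5 were higher with UCI-1014 and not called with p53-WT, 1 (HIST1H3G) was higher with UCI-1014 and lower with p53-WT, and 1 (HIST1H1C) was lower with UCI-1014 and higher with p53-WT. With UCI-1001, 11 were higher together with p53-WT, and HIST1H3G was again higher with the compound and lower with p53-WT. With UCI-1014 25 of the 31 were higher and with p53-WT 21, so the 19 were 19 of 25 and 19 of 21, and with calls this frequent in each line nothing is read from the overlap. Whether the responses of the lines differed was not tested, since the lines, the times and the agents all differ between them.

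**Figure D4:**
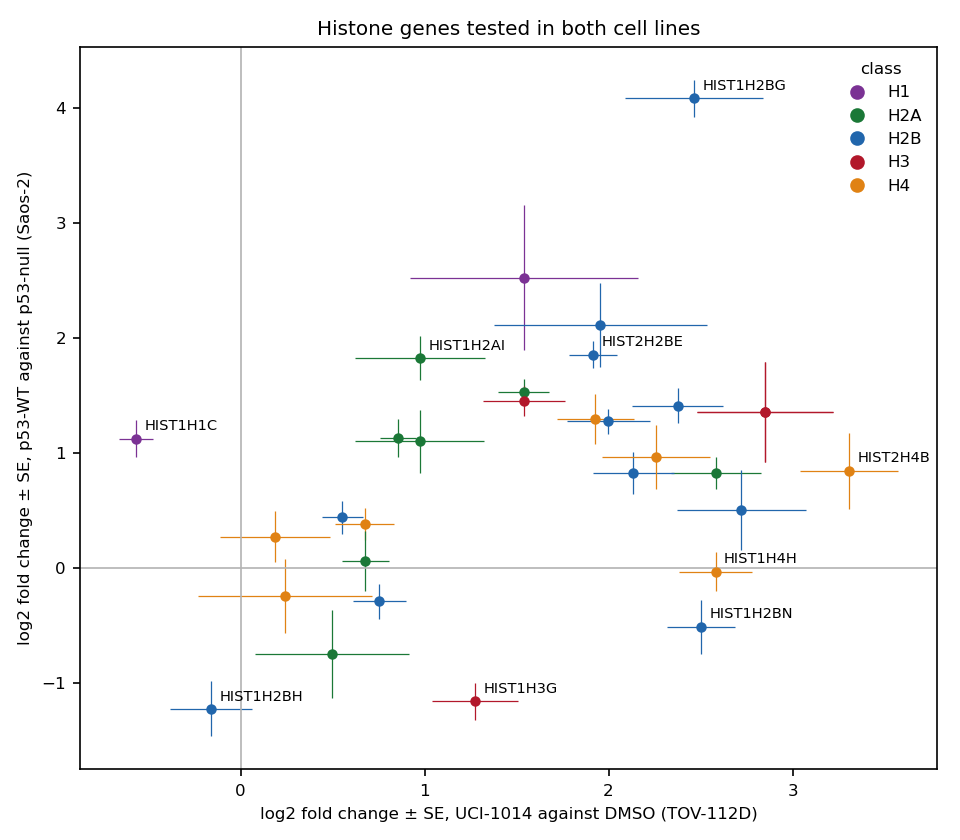
Log2 fold change with its SE for 31 histone genes tested in both cell lines: UCI-1014 against DMSO in TOV-112D (horizontal axis) and p53-WT against p53-null in Saos-2 (vertical axis), coloured by class. HIST1H2BG lies at 2.46 and 4.08, HIST1H1C at -0.57 and 1.13, HIST1H3G at 1.28 and -1.16 and HIST1H4H at 2.58 and -0.03.

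The transcript models behind the counts differed in length. Of 39 members with a transcript model in the deposited transcript tables, the model with the most counts was over 1000 bases in 20 and at or under 1000 bases in 19, with a range of 373 to 4137 bases and a median of 1196. A histone mRNA that ends at its stem-loop is usually shorter than this limit. Of 8 genes with models on either side of 1000 bases, 6 had most of their counts in the longer models, such as HIST1H2BE with 100% in a model of 2585 bases and none in one of 497 bases, and HIST1H3E with 93.9% in one of 2679 bases. The other 2 were HIST2H4A, with 26.4% in its long model and 73.6% in short ones, and HIST4H4, with 46.1% in its long model. In HIST1H2BJ, which has no long model, models of 381, 408 and 950 bases took 32%, 26% and 42% of the counts.

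Genes with long models made up most of the calls with the compounds. With UCI-1001, 12 of 20 tested genes with long models and 3 of 15 with short models were higher, with medians of 1.04 and 0.33. With UCI-1014 the counts were 17 of 20 and 9 of 15, with medians of 1.94 and 0.97. With p53-WT no such gap was seen: 11 of 17 and 9 of 15 were higher, with medians of 0.85 and 0.83. There were exceptions: HIST1H2BH, with a model of 2060 bases, did not pass with either compound, and HIST1H2BJ, at 950 bases, was among the larger rises. HIST2H2BD, the annotated pseudogene, is among the short models called higher with UCI-1014, but its length does not describe its counts. Its model of 493 bases held 1.56 estimated counts in DMSO replicate 1, where the gene count was 160. Of all genes tested, 7.75% were higher with UCI-1001, 22.7% with UCI-1014 and 32.9% with p53-WT. The long-model calls include HIST2H3A and HIST2H3C, 1 measurement, HIST1H2BE with the compounds, and HIST1H2BF with UCI-1014 and p53-WT. The short-model calls with p53-WT include HIST1H1E. For these genes a call of higher is favoured by the filter in these comparisons. The limit of 1000 bases was chosen with results of these data known, class and length are entangled, and the split carries no test.

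**Figure D5:**
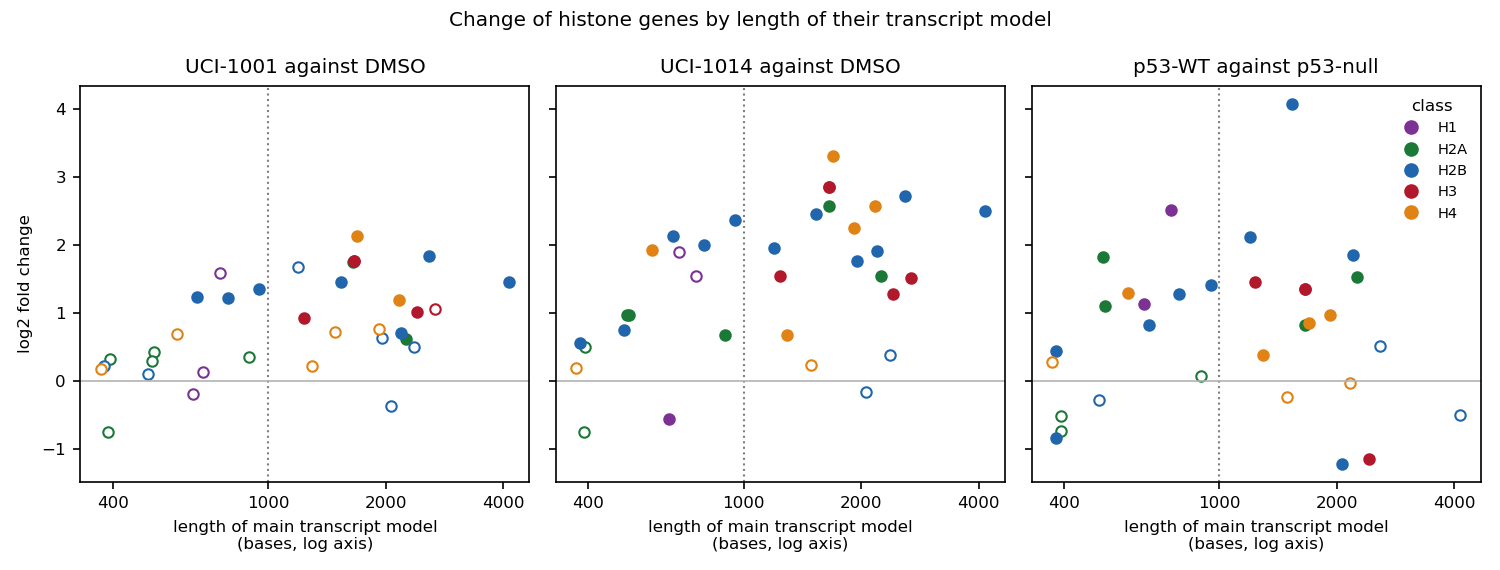
Log2 fold change of each tested histone gene (vertical axis) against the length in bases of the transcript model with the most counts (horizontal log axis), in 3 comparisons, with filled points past an edgeR adjusted p of 0.05 and a dotted line at 1000 bases. With UCI-1014, 17 of the 20 genes right of the line are called higher, against 9 of 15 left of it, while with p53-WT the shares are 11 of 17 and 9 of 15. HIST2H3A and HIST2H3C, which hold the same counts, are both right of the line, and some calls are favoured by the filter, as described in the text.

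The promoters of the members were taken from RefSeq (GRCh38.p14), with 250 bases before and 50 after the start, and 38 members matched. Searched on both strands, the TATA box letters TATAAA stood in 22 of the 38, compared with 11.95% of 27305 promoters of all genes, the CCAAT box letters CCAAT in 32, compared with 35.7%, and the octamer ATTTGCAT, which binds the factor OCT1, in 17, compared with 1.80%. Each motif was counted on its own, so matches of different motifs may overlap. In 7 pairs an H2A and an H2B gene start 219 to 248 bases apart in opposite directions, so their promoters overlap. A site in the shared bases is counted for both genes of a pair, and such matches are not independent in the numbers and splits below and above. The classes differed: CCAAT was in 14 of 14 H2B, 8 of 8 H2A and 6 of 6 H3 promoters but in 1 of 7 H4 promoters, and the octamer in 10 of 14 H2B, 6 of 8 H2A and 0 of 7 H4 promoters. Tested members with the octamer were higher with UCI-1014 in 11 of 14 cases and those without it in 14 of 20, with medians of 1.84 and 1.54. With p53-WT, members with TATAAA were higher in 15 of 19 cases (median 1.28) and those without it in 5 of 12 (median 0.02). This was the widest of the motif splits, it was picked after the values were seen, and none was tested. With UCI-1014 the TATAAA split gave 16 of 20 and 9 of 14 (medians 1.73 and 1.52), and with p53-WT the octamer split gave 9 of 14 and 11 of 17 (medians 0.83 and 0.97). Of all genes tested, 22.7% were higher with UCI-1014 and 32.9% with p53-WT. HIST2H3A and HIST2H3C, 1 measurement, are each counted, with TATAAA and without the octamer. The filter favours a call of higher for them, and with p53-WT also for HIST1H1E (with TATAAA) and HIST1H2BF (without it). With UCI-1014 it favours such a call for HIST1H2BE, with TATAAA and the octamer, and for HIST1H2BF, with the octamer.

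The decamer of p53 response elements was in 3 of the 38 promoters, those of HIST1H2AL, HIST2H3A and HIST2H3C, and in 6.54% of all promoters, and a match in letters is not a binding site. It was not in the promoter of HIST1H2BG. The 250 bases before the start are printed for HIST1H2BG and HIST1H2BH, the H2B genes with the largest rise and the largest fall with p53-WT, to show that both hold 3 CCAAT boxes and 1 octamer, 48 and 49 bases before the start, while TATAAA is in the first alone; capitals mark these letters on either strand.
HIST1H2BG, chr6:26216689-26216938, minus strand: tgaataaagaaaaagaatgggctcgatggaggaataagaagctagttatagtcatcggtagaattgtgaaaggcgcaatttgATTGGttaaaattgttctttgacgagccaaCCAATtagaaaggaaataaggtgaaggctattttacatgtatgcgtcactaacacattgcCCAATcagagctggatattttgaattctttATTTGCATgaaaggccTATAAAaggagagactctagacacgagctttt
HIST1H2BH, chr6:26251364-26251613, plus strand: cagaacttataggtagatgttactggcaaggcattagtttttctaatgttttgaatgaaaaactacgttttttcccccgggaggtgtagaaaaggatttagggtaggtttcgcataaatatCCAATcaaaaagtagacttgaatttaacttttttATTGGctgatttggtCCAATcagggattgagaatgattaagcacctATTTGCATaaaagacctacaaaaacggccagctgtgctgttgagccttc

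Position was compared as well. On chromosome 6, 17 of 24 tested members were higher with UCI-1014 and 14 of 24 with p53-WT. On chromosome 1 the counts were 8 of 10 and 5 of 7, beside 22.7% and 32.9% of all genes tested. The chromosome 1 counts include HIST2H3A and HIST2H3C, 1 measurement whose call is favoured by the filter, and HIST2H4A and HIST2H4B, which can share reads. The filter also favours calls on chromosome 6, for HIST1H2BE and HIST1H2BF with UCI-1014 and for HIST1H1E and HIST1H2BF with p53-WT. In 7 cases an H2A and an H2B gene started 219 to 248 bases apart in opposite directions. Members of such a pair did not always move by the same amount. With p53-WT, HIST1H2BG was at 4.08 and its partner HIST1H2AE at 1.10. HIST1H2BC and HIST1H2AC gave 0.83 and 0.83 with p53-WT and 2.13 and 2.58 with UCI-1014. HIST2H2BE and HIST2H2AC gave 1.91 and -0.76 with UCI-1014, the second of these not past the test.

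Genes that act on histone mRNA were described with lists of known factors. Of 18 genes for histone gene transcription and 3′ processing, 1 was higher and 0 lower for UCI-1001, 7 and 3 for UCI-1014, and 1 and 13 with p53-WT. The shares of all genes higher and lower were 7.75% and 5.22%, 22.7% and 21.5%, and 32.9% and 32.1% in these comparisons. SLBP, which binds the stem-loop, was at -0.12 with UCI-1001, -0.04 with UCI-1014 and -1.20 with p53-WT (edgeR adjusted p = 0.121, 0.506 and 8.12e-06). NPAT, the coactivator of histone gene clusters, was at 0.04, -0.07 and -1.38, of which the last passed the test. ZNF473, a zinc finger protein of the U7 processing complex, rose with both compounds by 0.95 and 1.77 and fell with p53-WT by 1.02 on the log2 scale. POU2F1, which encodes OCT1, rose by 0.66 with UCI-1014. ERI1, an exonuclease that trims the stem-loop, was at -2.37 with p53-WT and CASP8AP2, also called FLASH, at -1.44.

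Of 9 genes for histone mRNA decay, 1 was higher and 0 lower for UCI-1001, 3 and 1 for UCI-1014 and 2 and 5 with p53-WT, beside 7.75% and 5.22%, 22.7% and 21.5%, and 32.9% and 32.1% of all genes. TUT7, a terminal uridylyltransferase, rose in all 3, by 0.35, 0.92 and 0.59. XRN1, a 5′ to 3′ exonuclease, rose by 0.49 with UCI-1014, and UPF1, an RNA helicase that decay of histone mRNA requires, rose by 1.03 with p53-WT.

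Of 30 S phase genes tested, 0 were higher and 5 lower for UCI-1001 (median -0.04), beside 7.75% and 5.22% of all genes, and the other 25 were not called. For UCI-1014 2 were higher and 16 lower (median -0.16), beside 22.7% and 21.5%. With p53-WT 2 were higher and 28 lower (median -2.64), beside 32.9% and 32.1%. CCNE2, a cyclin that drives entry into S phase, was at -0.75 with UCI-1014 and -4.51 with p53-WT, and MCM10, a replication factor, was at -4.23 with p53-WT, while PCNA, the sliding clamp of DNA polymerases and a known p53 target, rose by 0.69 there. In the same p53-WT libraries the histone median was 0.85. The part of cell cycle phase in the histone values was not tested.

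Replacement histone genes, whose mRNAs are mostly polyadenylated and not limited to S phase, did not share one direction. Of 11 tested in TOV-112D cells, 1 was higher and 0 lower for UCI-1001, and 4 and 4 for UCI-1014, beside 7.75% and 5.22% and 22.7% and 21.5% of all genes. The linker variants H1F0 and H1FX rose with UCI-1014 by 0.90 and 0.76, unlike HIST1H1C, and H2AFZ and H3F3A were at -0.30 and -0.26. With p53-WT 2 of 12 rose, among them the macroH2A gene H2AFY2 by 2.69, and 9 fell, beside 32.9% and 32.1% of all genes, among them CENPA, the centromeric H3 variant, at -3.80 and H2AFX at -2.81. Of 24 histone chaperone genes 1 was higher and 2 lower for UCI-1001, 5 and 9 for UCI-1014 and 2 and 17 with p53-WT, beside the same shares of all genes. The 5 higher for UCI-1014 were close to the 22.7% of all genes. ASF1A, which hands H3 and H4 to assembly factors, rose by 0.27 and 0.62 with the compounds, whereas HJURP, the chaperone of CENPA, was at -4.07 with p53-WT.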

How the data were processed

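RNA-seq libraries were quantified by the authors with kallisto 0.48.0 on GRCh38, per the labels and the submitters' processing notes, which also name DESeq2 1.38.3. The deposited gene table holds estimated counts, summed per gene and turned into integers, and the deposited transcript tables hold estimated counts and TPM. The strand setting and any poly(A) selection are not given in the sources used here. Depth was 17762027 to 24629558 counts per library, and low members are limited by it.

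Counts were fitted with edgeR 4.0.16 in R 4.3.3 (filterByExpr, TMM, quasi-likelihood test), separately for 6 TOV-112D and 6 Saos-2 libraries, with Benjamini-Hochberg adjustment over all genes tested and a threshold of 0.05. SE is the log2 fold change divided by the root of F, and intervals are 1.96 SE to either side. CPM values use TMM-scaled library sizes. Alternatives were DESeq2 1.42.0, no filter, a log2 limit of 1, a replicate block and leaving out each library. The code was tested on simulated data. Figures used matplotlib 3.10.9.

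The members and gene lists were chosen with earlier results of these data known. Any member could be named. Values per library were given for the 2 members of each class with the highest mean CPM and for the 3 largest rises and falls of each comparison among members past the test whose mean reached 1 CPM, and a few others were added after their values were seen. From the other lists SLBP, NPAT and the 2 largest rises and falls were eligible, with others added likewise. Stem-loops were searched in GENCODE release 44, and transcript lengths are those of the deposited tables. No sample column was left unmapped. The level of the gene expressed from the construct is not reported here.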

Additional observations from a re-analysis of the deposited data

How the results depend on the processing

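No histone gene that was called changed direction under any alternative. The median log2 fold change of the members with UCI-1001 was 0.94 by DESeq2. With a log2 limit of 1, 0 members were lower with UCI-1014, and against UCI-1001 11 were higher and 0 lower. For UCI-1014 against UCI-1001 DESeq2 called 0 lower, and the median was 0.77 with no filter and 0.87 by DESeq2. Leaving out each library in turn gave 6 to 15 members higher with UCI-1001 (median 0.71 to 0.87), 1 to 2 lower with UCI-1014 (median 1.39 to 1.71), 12 to 19 higher and 0 to 1 lower between the compounds (median 0.63 to 0.83), and 17 to 19 higher and 2 to 4 lower with p53-WT (median 0.75 to 1.02). Signs turned only for values past no test: leaving out single libraries, HIST1H2BH with UCI-1014 ran from -0.3429 to 0.01028, HIST1H1E between the compounds from -0.3557 to 0.3031 and HIST1H4H with p53-WT from -0.1304 to 0.05405, and HIST1H4H was at 0.05796 without replicate 1 of both lines. The cause was not tested.

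Same-numbered libraries did not deviate together throughout: correlations were 0.053, -0.034 and -0.133 in TOV-112D and 0.127, 0.066 and 0.053 in Saos-2 cells. These values cannot settle whether same-numbered libraries were handled together. In TOV-112D the 2 libraries of a group deviate as mirror images, so each pair of groups gives a single value. In Saos-2 cells not every library correlated best with its own number. With a replicate block 13, 26, 17 and 20 members were higher in the 4 comparisons (15, 27, 20 and 21 without it) and 0, 1, 1 and 2 lower.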
